A study of Arabidopsis thaliana with 4 samples.

Results

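The 4 genes THI2.1 (AT1G72260), JRG21 (AT3G55970), JAL33 (AT3G16450) and PYK10 (AT3G09260) of Arabidopsis thaliana were grouped as jasmonate-linked defence and ER body genes by their names in the platform annotation, 4 of 1801 genes that could be named on the array. They were picked with their ratios on these arrays already known, so their values are a description without a test of their own. A cutoff for outlying values, given near the end, served only as a flag. The study set the hy5 mutant against wild type, all plants having had continuous white light for 4 days. The labels do not give the hy5 allele, the accession, the tissue or the number of plants, and these limit what the groups stand for. Dye-labelled total RNA of mutant and wild type was hybridised in pairs to 4 arrays of 70mer oligonucleotides. The mutant carried Cy3 on replicates 1 and 2 and Cy5 on replicates 3 and 4, and the submitters describe the arrays as biological replicates.

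HY5, a transcription factor of the bZIP class, drives development in the light and binds promoter elements with an ACGT core. Jasmonates are lipid-derived hormones of wounding and defence. Their bioactive conjugate brings JAZ repressors to the F-box receptor COI1 for breakdown, which frees MYC transcription factors to switch on defence genes. ER bodies are spindle-shaped compartments of the endoplasmic reticulum, found in seedlings and roots of Brassicaceae and filled with beta-glucosidases that meet their substrates when cells are broken. Several jacalin-related lectins associate with these enzymes in damaged tissue.

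Each value is read as a log2 ratio of the 2 channels of an array, so a difference of 1 is a factor of 2. The log base is not given, and the fold differences below rest on base 2. The sources used here do not say which genotype is on the positive side, nor whether the dye-swapped arrays had been turned to a common direction before deposit. Each value is therefore given in 2 readings, as deposited and with replicates 1 and 2 multiplied by -1. If the authors had turned the arrays, a genotype difference keeps its sign as deposited. If they had not, it changes sign with the dyes and keeps its sign after turning. A deposited sign that stays the same on every array would then follow the dye channels and not the genotypes. Array pairs with swapped dyes did not settle this, with Pearson's r between -0.049 and 0.080 across features, against 0.264 and 0.229 for the pairs with the same dyes. For this reason the text gives signs of ratios. It says of no gene that the genotypes differed, or which of them had more transcript.

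Replicates 1, 2, 3 and 4 held values for 25007, 26739, 25057 and 18004 of 27648 probes, so replicate 4 lacked 34.9% of them. The 4 genes had 1 probe each and a value on every array. The 3 genes spotted 17 times on each array gave SDs between spots of the same array from 0.126 to 1.19, with a median of 0.414. These SDs depended on the gene and the array. On replicate 2 they lay between 0.126 and 0.195, while 1 of the 3 genes had 1.186 and 1.175 on replicates 1 and 3. The median is therefore only a rough measure of the error of a single spot. For the single-probe genes no such error could be measured. Precision is set by having 4 arrays.

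The 4 genes did not behave alike on the deposited scale. JRG21 and JAL33 had clearly negative ratios on every array, THI2.1 had negative ratios of very unequal size, and PYK10 lay near 0. If the arrays had not been turned before deposit, the constant signs of JRG21, JAL33 and THI2.1 would follow the dye channels and not the genotypes. Which case holds is not known, so these ratios are not read as genotype differences. In all, 3 of the 4 were negative on all 4 arrays, where 10.3% of the 16577 features with 4 values were. Nothing can be read from that count, since the genes were chosen with these ratios in view. After turning, 0 of the 4 kept 1 sign, against 21.6% of the same features. For the 3 genes negative on every array this follows from the turning itself, so nothing can be read from it either. Among all 24153 features tested, those with an unadjusted p under 0.05 in limma were more often negative than positive as deposited (1294 and 535). Turned, the numbers were 1043 negative and 1079 positive.

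**Figure D1:**
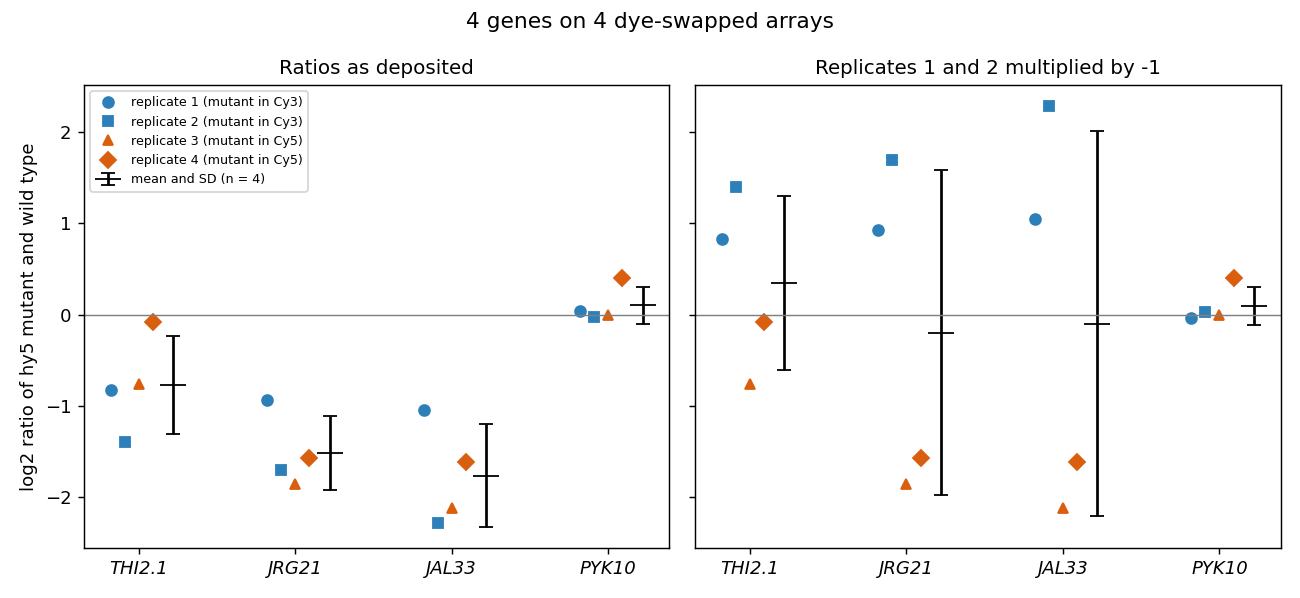
Log2 ratios of the 4 genes on each array (points, blue for the mutant in Cy3 and orange for the mutant in Cy5), with the mean and SD over 4 arrays in black, as deposited on the left and with replicates 1 and 2 multiplied by -1 on the right. On the left JRG21 and JAL33 lie between -2.29 and -0.93 on every array and PYK10 between -0.029 and 0.41, and on the right the points of JRG21 and JAL33 split around 0 by dye.

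JRG21 encodes an iron-dependent dioxygenase that hydroxylates jasmonic acid and so removes the hormone's precursor. It is itself induced by jasmonate. Its log2 ratios as deposited were -0.93, -1.70, -1.86 and -1.58 on replicates 1 to 4. The ratios of replicates 2, 3 and 4 lay close together and replicate 1 stood nearer to 0. The values of the Cy3 and Cy5 arrays overlapped, replicate 2 lying between replicates 3 and 4. The mean was -1.52 ± 0.41 (SD, n = 4), a 2.86-fold difference on the deposited scale. The mean of the arrays with the mutant in Cy3 was -1.32 and that of the arrays with the mutant in Cy5 was -1.72. After turning, the mean was -0.20 ± 1.78 (SD, n = 4), with a spread much wider than the mean.

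JAL33 encodes a jacalin-related lectin, a carbohydrate-binding protein of a family found in the complexes that ER body beta-glucosidases form. Its deposited log2 ratios on replicates 1 to 4 were -1.04, -2.29, -2.12 and -1.61. All 4 were below -1, on replicate 1 by little, as were all 4 ratios of 0.627% of the features with 4 values. JRG21 missed that level on replicate 1 alone. Both genes were chosen with these ratios known, so nothing is read from that share. The mean of JAL33 was -1.77 ± 0.56 (SD, n = 4), a 3.40-fold difference on the deposited scale. The dye groups overlapped here too, with means of -1.67 for the mutant in Cy3 and -1.87 for the mutant in Cy5. Turned, the gene averaged -0.10 ± 2.11 (SD, n = 4), and its single values ran from -2.12 to 2.29.

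JRG21 and JAL33 followed each other from array to array. The ratio of JRG21 exceeded that of JAL33 by 0.11, 0.59, 0.26 and 0.036 on replicates 1 to 4, a mean difference of 0.25 ± 0.25 (SD, n = 4). JAL33 was thus the lower of the pair on each array, by less than the median SD between repeated spots on all but replicate 2. Among the 1202 other named genes with 4 values, JAL33 had rank 5 by closeness to JRG21, with a root mean square difference of 0.329 over the 4 arrays. Turning changes the sign of both genes on the same arrays and leaves this distance as it is. The 2 genes share the arrays and their dye effects, and a likeness over 4 values says nothing of common control.

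THI2.1 encodes a thionin, a small cysteine-rich antimicrobial protein, and is a classical target of jasmonate signalling. Its ratios as deposited were -0.83, -1.40, -0.76 and -0.085. The gene was negative on every array, but replicate 4 was nearly at 0. Both arrays with the mutant in Cy3 were lower than both arrays with the mutant in Cy5, with means of -1.11 and -0.42, a gap of -0.69 between the dye orientations. Replicates 1 and 3 nevertheless lay close together, at -0.83 and -0.76. The mean over arrays was -0.77 ± 0.54 (SD, n = 4), a 1.70-fold difference on the deposited scale. Turned, THI2.1 had 0.83, 1.40, -0.76 and -0.085, with a mean of 0.35 ± 0.96 (SD, n = 4). The sign of its mean thus depended on the reading, and in the turned reading the SD exceeded the mean.

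THI2.1 stood apart from JRG21 chiefly on the arrays with the mutant in Cy5. It exceeded JRG21 by 0.10 and 0.30 on replicates 1 and 2, and by 1.098 and 1.491 on replicates 3 and 4. With JAL33 the corresponding differences were 0.21, 0.89, 1.36 and 1.53. Neither difference was tested, since all these values were known when the genes were chosen.

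PYK10 encodes the main beta-glucosidase of root ER bodies, which splits glucosides into toxic products after tissue damage. Its ratios were 0.040, -0.029, -0.0096 and 0.41 as deposited. The values of replicates 1 to 3 were all but 0, and replicate 4, the array with the most empty cells, stood alone above them. The mean was 0.10 ± 0.20 (SD, n = 4), within the spread between arrays, a 1.07-fold difference on the deposited scale. Turned, it was 0.096 ± 0.21 (SD, n = 4), because the values that changed sign were close to 0. Without replicate 4 the mean as deposited was 0.00038. PYK10 thus had the narrowest spread of the 4 genes in both readings.

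Within each array's own ratios, the 3 negative genes lay in the lower tail to different degrees. On replicates 1 to 4, 9.14%, 5.11%, 3.58% and 6.31% of features had a lower ratio than JRG21. For JAL33 these shares were 7.63%, 3.12%, 2.63% and 5.96%. For THI2.1 they were 11%, 6.67%, 14.6% and 46.4%, so that on replicate 4 the gene lay near the middle of the array. PYK10 lay near the middle on replicates 1, 2 and 3, with 52.1%, 48.4% and 49.5% of features lower, and higher on replicate 4, with 81% lower. By mean ratio as deposited, JAL33 had rank 3 and JRG21 rank 8 from the lowest among 1203 named genes with 4 values, while THI2.1 was at rank 48 and PYK10 at rank 715. Turned, the ranks were 455 (JAL33), 299 (JRG21), 1051 (THI2.1) and 786 (PYK10). The genes were chosen with these ratios known, so the ranks are a description only.

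**Figure D2:**
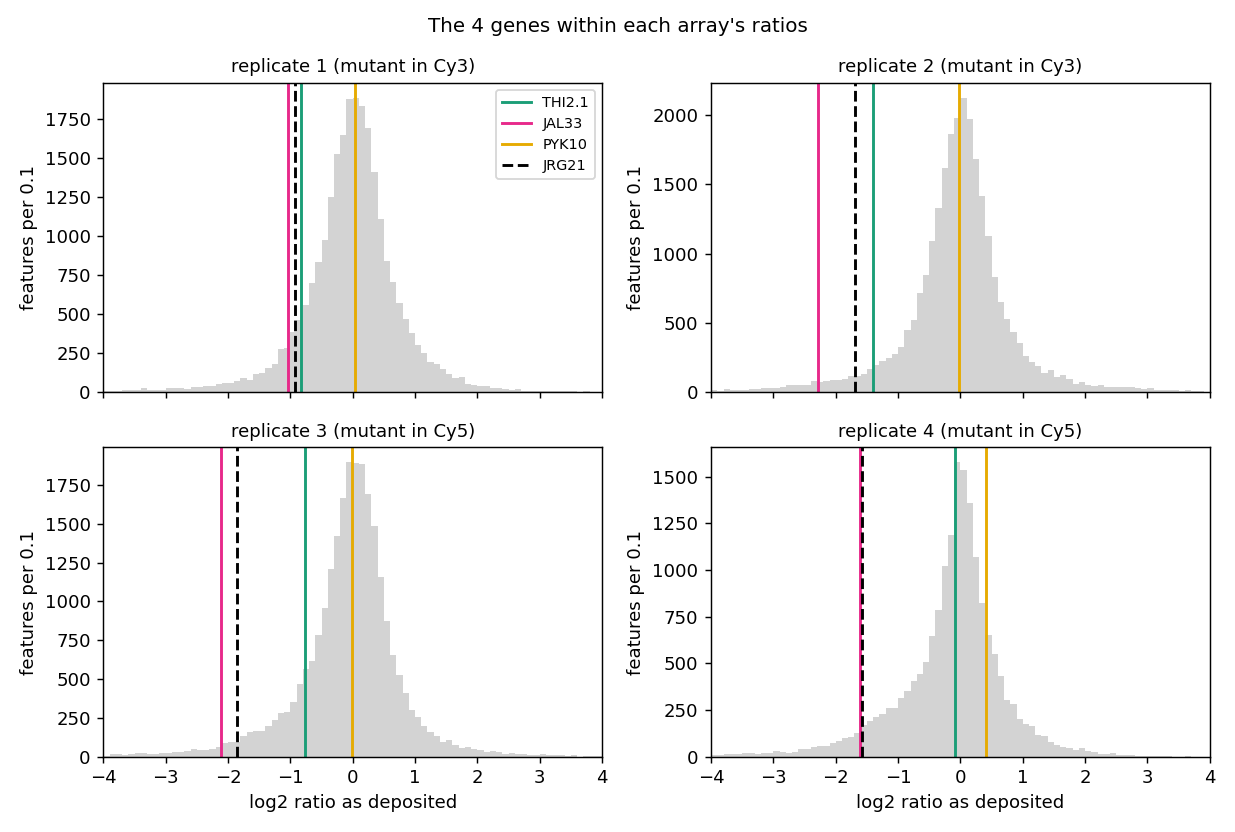
Histograms of the deposited log2 ratios of all features on each array (grey, features per step of 0.1), with lines at the ratios of the 4 genes, drawn from -4 to 4. JAL33 and JRG21 lie in the left tail on all 4 arrays, THI2.1 moves from the left tail on replicate 2 to -0.085 on replicate 4, and PYK10 lies at the centre on all arrays but replicate 4.

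The wider pathway could be followed through few genes. Of 75 further genes in 5 lists (jasmonate synthesis and turnover, jasmonate perception and signalling, jasmonate-responsive defence, jacalin-related lectins, ER body), 7 were named and measured. Of the 19 genes of perception and signalling, among them COI1, the MYC factors and the JAZ repressors, 0 were among the named genes, and they were not analysed here. Probes of a genomic clone that holds the ER body gene NAI2 together with other genes (10 probes) were left unnamed. The 9 root and 7 green tissue markers were not among the named genes either, so the makeup of the tissue was not tested. In such samples, fewer cells of a type and less RNA per cell cannot be told apart.

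None of the 7 genes passed an adjusted p of 0.05 in limma over 24153 features in either reading, where 0% of all features did. A one-sample statistic with unmoderated variances called 0 features after adjustment as well. At an unadjusted p under 0.05 there were 0 of the 7 as deposited and 1 of the 7 (THI2.2) turned, against 7.57% and 8.79% of all features. Their adjusted p-values ran from 0.757 to 0.968 as deposited and from 0.549 to 0.981 turned. The median of their mean ratios was -0.038 as deposited and 0.11 turned, beside -0.0063 and -0.014 over all features tested.

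In jasmonate synthesis and turnover, JMT encodes the methyltransferase that makes methyl jasmonate. Its deposited ratios were 0.59, -0.17, -0.18 and 2.44, and replicate 4 alone was far from 0. The mean was 0.67 ± 1.24 (SD, n = 4) as deposited, with a limma 95% interval from -0.60 to 1.94, and 0.46 ± 1.36 (SD, n = 4) turned. Without replicate 4 the deposited mean was 0.079. OPCL1, a ligase that activates jasmonate precursors before beta-oxidation, had -0.50, 1.28 and -1.42 on replicates 1 to 3 and no value on replicate 4. The 2 arrays with the mutant in Cy3 had opposite signs, and the mean was -0.21 ± 1.37 as deposited and -0.74 ± 1.07 turned (SD, n = 3). AT5G05600, also of this list, had -0.16, 0.49 and -0.20 on the same 3 arrays. Its mean was 0.045 ± 0.39 as deposited and -0.18 ± 0.32 turned (SD, n = 3).

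THI2.2 is the second thionin gene measured. Its deposited ratios were -0.84, -0.70, -0.012 and 0.69, negative on both arrays with the mutant in Cy3, near 0 on replicate 3 and positive on replicate 4. Once replicates 1 and 2 were turned, its mean was 0.56 ± 0.38 (SD, n = 4) with a limma 95% interval from 0.037 to 1.08 and an adjusted p of 0.549. As deposited it was -0.22 ± 0.71 (SD, n = 4). Both thionins had lower deposited ratios on each of the arrays with the mutant in Cy3 than on either array with the mutant in Cy5. For THI2.1 this order rests on -0.83 on replicate 1 and -0.76 on replicate 3, closer than the median SD between repeated spots. How many of all features share this order was not counted, so nothing is read from it. THI2.1 was the lower of the 2 on replicates 2, 3 and 4, by 0.70, 0.75 and 0.78, and the genes differed by 0.013 on replicate 1.

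JAL34, a lectin gene of the same family, is the next protein-coding gene after JAL33 on the chromosome in the TAIR10.1 gene table. Its deposited ratios were -0.23, -0.43, 0.17 and 0.34, much closer to 0 than those of JAL33 on each array. JAL33 minus JAL34 was -0.81, -1.86, -2.29 and -1.95 on replicates 1 to 4. The sign of JAL34 changed with the dyes, so its mean was -0.038 ± 0.36 as deposited and 0.29 ± 0.11 turned (SD, n = 4). In limma the adjusted p was 0.967 as deposited and 0.617 turned, with a 95% interval from -0.071 to 0.66 in the turned reading. The neighbouring lectin genes MLP-300B and JR1 were not among the named genes.

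Of the ER body genes, BGLU21 encodes a beta-glucosidase closely related to PYK10. It had deposited ratios of 0.19, -0.077, -0.31 and 0.86, and as for PYK10 its highest value was on replicate 4. Its mean was 0.16 ± 0.51 as deposited and 0.11 ± 0.53 turned (SD, n = 4), and without replicate 4 the deposited mean was -0.068. PYK10 minus BGLU21 averaged -0.062 ± 0.32 (SD, n = 4), a difference smaller than its spread. GLL23, the GDSL-like lipase gene AT1G54010, had -0.21, -0.22 and -0.50 on replicates 1 to 3 and none on replicate 4, a deposited mean of -0.31 ± 0.17 and a turned mean of -0.025 ± 0.41 (SD, n = 3). Closely related lectin, thionin and beta-glucosidase transcripts may hybridise to each other's probes, which was not tested.

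**Figure D3:**
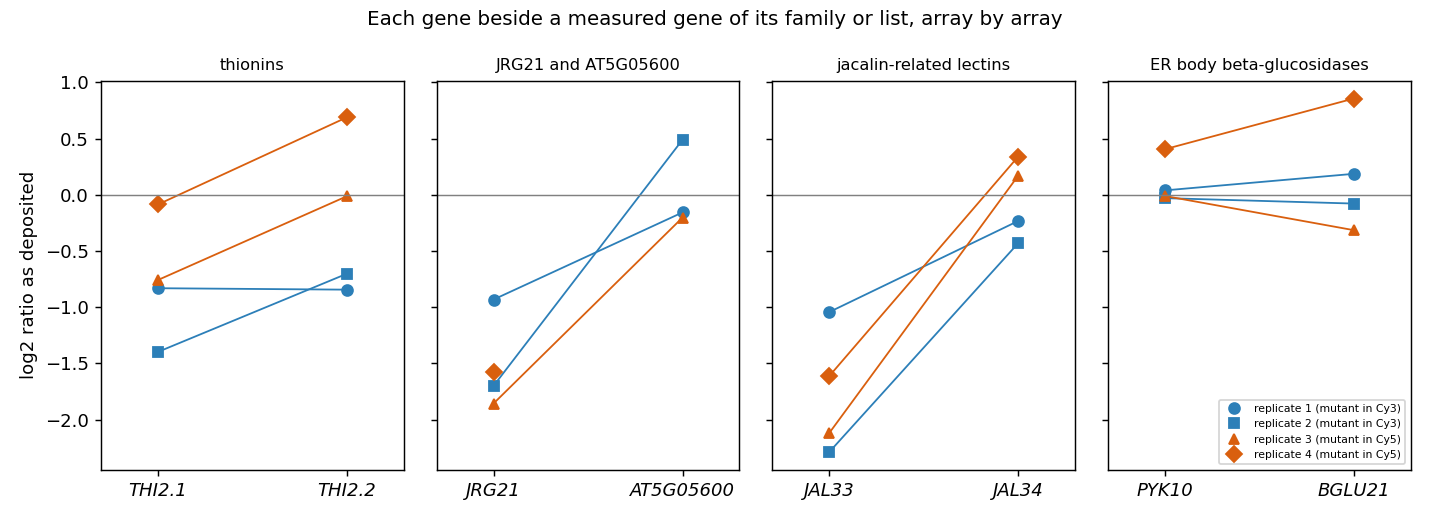
Deposited log2 ratios of each of the 4 genes (left in each panel) and of a measured gene of its family or list (right), joined array by array, blue for the mutant in Cy3 and orange for the mutant in Cy5. JAL33 lies below JAL34 on each array and JRG21 below AT5G05600 on the 3 arrays with both values. PYK10 stays near 0 apart from replicate 4, at 0.41, and BGLU21 runs from -0.31 on replicate 3 to 0.86 on replicate 4.

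The mean of one reading was set against that of the other, as a description only. JRG21 and JAL33 had large deposited means and turned means near 0. Where all 4 ratios have 1 sign and similar size, this follows from the turning itself, so nothing is read from it. THI2.1 had a deposited mean of -0.77 and a turned mean of 0.35. Among the 4 list genes with values on all 4 arrays, THI2.2 and JAL34 had a mean further from 0 when turned, at 0.56 and 0.29, and JMT and BGLU21 did not. Of the 3 list genes without replicate 4, OPCL1 and AT5G05600 also had a mean further from 0 when turned, at -0.74 and -0.18, and GLL23 did not. PYK10 and BGLU21 had nearly the same small mean both ways. Of all features with 4 values, 1.16% had a lower deposited mean than JAL33 and 39.5% a lower turned mean. For JRG21 these were 2.03% and 27.9%, for THI2.1 7.93% and 86.2%, and for PYK10 65.1% and 64.9%.

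**Figure D4:**
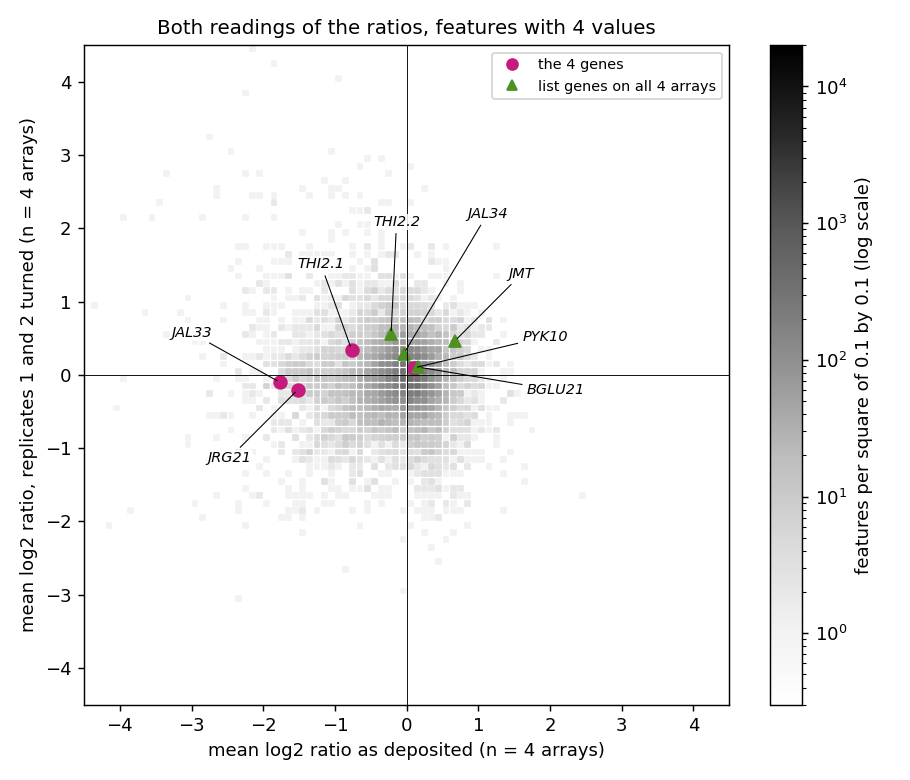
Mean log2 ratio over 4 arrays as deposited (horizontal) and with replicates 1 and 2 multiplied by -1 (vertical) for features with 4 values (grey squares shaded by their number on a log scale), the 4 genes (circles) and the list genes on all 4 arrays (triangles), a few outlying features being beyond the axes. JAL33 and JRG21 lie far to the left at -1.77 and -1.52 and near 0 on the vertical axis, at -0.10 and -0.20.

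The named genes with ratios most like each of the 4, by root mean square difference over the 4 deposited values, were found among 1202 others. For JRG21 the closest were AT4G28570 (0.122), AT3G43540 (0.199) and RECQI1 (0.255), a RecQ-type helicase gene. AT4G28570 had -0.78, -1.82, -2.003 and -1.55 on replicates 1 to 4, again least negative on replicate 1. For JAL33 they were AT4G35080 (0.208), AT4G28570 (0.275) and AT3G43540 (0.310), so that 2 genes were close to both. AT4G19110 (0.284), AT1G19010 (0.304) and AT1G72090 (0.362) were closest to THI2.1. Those closest to PYK10 were AT3G24100 (0.0434), AT5G65180 (0.0801) and AT1G11630 (0.0810), each with its highest value, 0.34, 0.29 and 0.42, on replicate 4. The choice of genes sets these distances, and no test goes with them.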

How the data were processed

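The deposited values are read as log2 ratios per probe and array. The submitters' processing notes name limma. Its version and role, the background correction, normalization, spot filter, ratio direction and log base (read as 2) are not given in the sources consulted. Of 27648 probes, the platform annotation paired 2032 with 1 gene, 644 with several and 24972 with none; 2029 of the 2032 matched the TAIR10.1 gene table, which updated their symbols. Probes of a single gene were averaged, and 26 genes (136 probes) whose accession served at least 3 probes were left unnamed. Features with at least 3 values were tested against 0 with limma 3.58.1 in R 4.3.3 (lmFit, eBayes, two-sided, Benjamini-Hochberg), checked on simulated data. The 4 genes, the gene lists and the tests were chosen with earlier results of these data known. Text names the 4 genes, measured list genes and the 3 named genes closest to each of the 4. Each array pairs both genotypes, so no replicate block exists. Centring, scaling, dye and left-out arrays were tried as alternatives. Python 3.11.15 and matplotlib 3.10.9 were also used. No probe, promoter or protein sequence was used here.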

Additional observations from a re-analysis of the deposited data

Results flagged for a closer look

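PYK10 was at 0.41 on replicate 4, away from the other arrays, which lay between -0.029 and 0.040 as deposited and between -0.040 and 0.029 when turned. The gap to the nearest array was 0.842 of the whole range as deposited and 0.846 when turned. PYK10's values were known when the gene was chosen, so its shares are a flag only and no p-value goes with them. The turned values are the same 4 numbers with 2 signs changed, so they are no second instance. Replicate 4 is the array with 34.9% empty cells. Its part in the value was not tested.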

How the results depend on the processing

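Alternatives for the 4 genes and for the counts of features were planned. Those for the list genes and for likeness were added after seeing the data. No paired analysis was possible because each array already pairs mutant and wild type in 1 group. The 4 genes have 1 probe each, so single probes gave no further value. The limit that signal over background sets is unknown without intensities. The cause of a change below was not tested, beyond the turning itself.

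Turning gave THI2.1 0.3462, JRG21 -0.2005 and JAL33 -0.1001 in place of their deposited means. From turned ratios, replicates 1 and 2 alone gave JRG21 1.315, JAL33 1.666 and PYK10 -0.005384, and replicates 3 and 4 alone gave THI2.1 -0.4214. With each array left out, the deposited means ranged from -0.995 to -0.5577 (THI2.1), -1.711 to -1.402 (JRG21), -2.007 to -1.592 (JAL33) and 0.000376 to 0.1453 (PYK10), and the turned ones from -0.00412 to 0.7141, -0.8337 to 0.3513, -0.8965 to 0.5734 and -0.006803 to 0.1417. Under every alternative run, 0 features passed the adjusted threshold in limma. At an unadjusted p under 0.05, leaving out arrays gave 1363 to 1874 features as deposited and 1321 (without replicate 2) to 2144 turned, against 1829 and 2122.

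Among the list genes, none of which passed, turning gave AT5G05600 (JOX2 in the lists) -0.1789, THI2.2 0.5558 and JAL34 0.2933 in place of deposited means of the other sign. Replicates 1 and 2 alone gave OPCL1 0.3931 as deposited, and JMT -0.2082, BGLU21 -0.05493 and GLL23 0.2142 turned. Replicates 3 and 4 alone gave THI2.2 0.3394 and JAL34 0.2557 as deposited. For AT5G05600, which has no value on replicate 4, replicate 3 alone gave -0.2014. The median over arrays gave AT5G05600 -0.1558 as deposited, and JMT -0.002448, BGLU21 -0.05493 and GLL23 0.2099 turned. With each array left out, deposited means ranged from -0.9581 to 0.3931 (OPCL1), -0.1786 to 0.1677 (AT5G05600), -0.1638 to 0.09303 (JAL34), -0.06806 to 0.3223 (BGLU21), -0.5186 to -0.007424 (THI2.2), 0.07929 to 0.9537 (JMT) and -0.3615 to -0.2142 (GLL23). The turned means ranged from -0.1983 to 0.8133 (JMT), -0.1413 to 0.2491 (BGLU21), -0.1472 to 0.2142 (GLL23), -1.351 to -0.3931 (OPCL1), -0.3463 to -0.02279 (AT5G05600), 0.46 to 0.7449 (THI2.2) and 0.2479 to 0.3342 (JAL34). The 3 genes closest to each of the 4 were the same 3 after centring or scaling the arrays, but neither step could change much. Centring shifts all genes of an array alike and leaves these distances as they are. Scaling moved them little, since the median absolute deviations of the arrays ran only from 0.3721 to 0.3755. Nothing is read from this.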

Other observations

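PYK10 was closer to 0 on replicates 1 to 3 than almost any other feature, an observation made after its values were seen and given without a test. Of 23365 features with values on those 3 arrays, 15, PYK10 among them, stayed within 0.0398 of 0 on all 3. The replicate 4 value of 0.41 did not share this. Over all 4 arrays, 16.1% of features with 4 values had a smaller deposited SD than PYK10. Values this close to 0 also lie well below the median SD between repeated spots, 0.414, so a single spot cannot resolve them.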
